A study of Allium sativum with 42 samples.

Results

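The comparison set late garlic bulbs, sampled at 222 and 227 days, against bulbs in the middle of their expansion, sampled at 202 and 207 days. Each age had 3 libraries, so 6 late and 6 mid libraries were used out of 42 in the series, and all were chosen by the age in their labels. All plants were Allium sativum of the cultivar Ershuizao, grown on an experimental farm with no treatment named, and the labels name the tissue as bulbs. Per the growth protocol, sampling of bulbs began before expansion, at 192 days, and ended when it was over, at 227 days. The series also held bulbs at 192, 197, 212 and 217 days and buds, leaves, pseudostems, garlic sprouts, roots and flowers. These are used here mainly to show where the changed genes stood elsewhere, and in a comparison of mean profiles. The bulbs among them also entered an alternative fit of all 24 bulb libraries. Genes with at least 1 FPKM (fragments scaled to gene length and to the mapped total of each library) in at least 3 of the 12 libraries were tested, which kept 29049 of the 58219 gene IDs in the table.

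A garlic bulb is a cluster of cloves, each a swollen storage leaf around a shoot bud. During expansion the storage leaves fill with fructans, the soluble fructose polymers that serve garlic in place of starch, and with storage proteins such as lectins, and they accumulate the sulfur compounds that alliinase later cleaves. Towards harvest, growth slows, the outer leaves dry and the cloves enter dormancy. The question of the comparison was therefore which transcripts separate bulbs near the end of growth from bulbs still filling. The table pairs no ID with a gene name, so neither these gene groups nor marker genes of bulb tissue could be looked up, and 4 genes are named by ID alone.

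Read numbers recovered from the FPKM steps came to 18.68 to 26.98 M in late libraries and 20.68 to 34.07 M in mid libraries. The mean profile of each of the 4 ages was nearest to the other age of its own period, at r = 0.978 between 227 and 222 days and r = 0.98 between 207 and 202 days, across genes, which are not independent replicates. The second nearest was close behind and outside the period. It was 212 days for 222 days (r = 0.969) and 217 days for 227 days (0.961). For 202 days it was 217 days (0.972) and for 207 days 197 days (0.972). Among tissues not labelled as bulbs, the nearest profile was that of flowers for 222 and 227 days (r = 0.916 and 0.915). For 202 and 207 days it was that of buds (r = 0.892 and 0.91). Replicate 2 of the 227-day bulbs stood apart. It correlated with the other 227-day replicates at 0.834 and 0.841, while those correlated with each other at 0.965. In it alone, 364 genes were under 0.5 FPKM while all 11 others had 5 FPKM or more, and 265 genes showed the opposite pattern, against at most 3 and 5 genes in any other library. It was kept, and counts of calls and of their overlap are also given without it. The labels do not say whether replicates came from separate plants, so p-values measure only how these libraries vary, and that variation may be technical.

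Late bulbs differed from mid bulbs in many genes, with few large rises and many smaller falls. Of the 29049 genes tested, 580 were higher in late bulbs (2.0%) and 2729 were lower (9.39%), by limma with an adjusted p below 0.05 and a difference of at least 1 on the log2(FPKM + 1) scale. The rises were larger: 196 of the 580 (33.8%) reached a log2 difference of 2 and 71 reached 3, against 378 (13.9%) and 41 of the 2729 falls. A difference of at least 4 was met by 23 genes that rose and 4 that fell. In bulk tissue, fewer cells of a type and less RNA per cell cannot be told apart. Leaving out the 227-day replicate that stood apart gave 769 rises and 2365 falls, and 526 and 2209 of these had been called with all 12 libraries.

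**Figure D1:**
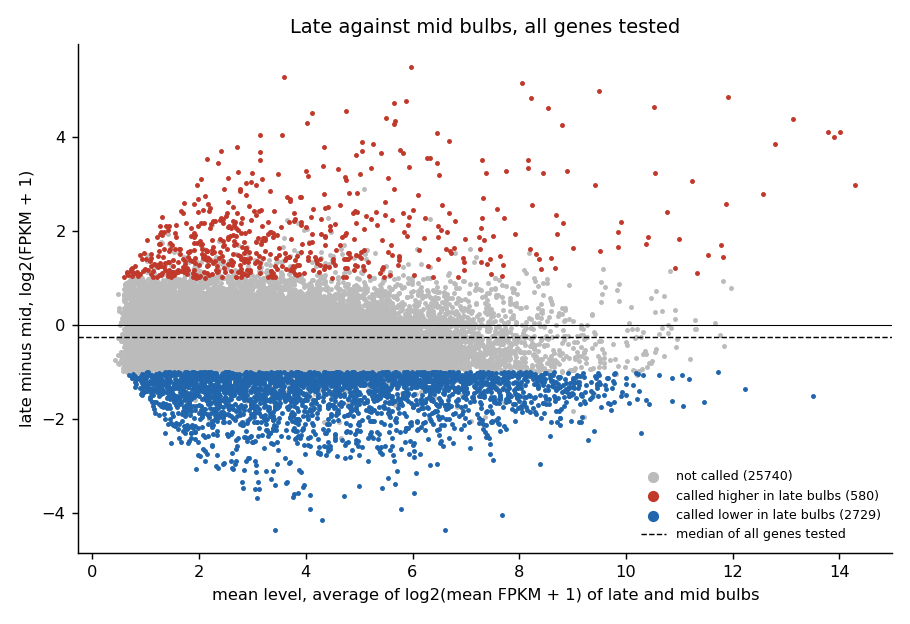
Each point is 1 of the 29049 genes tested. The horizontal axis gives its level as the average of log2(mean FPKM + 1) in late and mid bulbs, and the vertical axis gives the late minus mid difference on the log2(FPKM + 1) scale. The 580 genes called higher reach further from 0 than the 2729 called lower, and the dashed line marks the median of all genes at -0.27.

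The balance of rises and falls depended on how libraries were scaled. With FPKM as deposited the median difference over all genes was -0.27 and 17.5% of the called genes were higher. Median-of-ratios scaling brought that median to 0.01 and gave 963 higher and 1360 lower genes, 41.5% higher. Quantile normalization gave 1024 and 1270 (44.6% higher). Rescaling to the sum without the 195 genes that were among the 100 most abundant of any library gave 1360 and 1028 (57% higher), with a median of 0.14. Called under FPKM, TPM and these 3 scalings alike were 504 of the 580 rises and 991 of the 2729 falls. No gene called with FPKM as deposited was called in the opposite direction under any of them. The median over all genes lay between -0.32 and 0.14 under these scalings. Calls of at least 1 in either direction could hardly reverse with such shifts, so nothing is read from this.

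Asa6G07841.1, with a coding length of 552 bases, rose most among genes with at least 10 FPKM in the higher period and no overlap between late and mid libraries. It had 301, 615 and 973 FPKM at 222 days and 425, 59.6 and 293 FPKM at 227 days, against 3.52, 12 and 6.70 FPKM at 202 days and 7.58, 1.89 and 14.8 FPKM at 207 days. Every late library was above every mid library, and the lowest late value was that of the 227-day replicate that stood apart. The mean was 444 ± 316 FPKM in late bulbs and 7.74 ± 4.91 FPKM in mid bulbs (SD, n = 6 each), 5.48 ± 0.56 higher on the log2(FPKM + 1) scale (SE; adjusted p = 9.15e-05, limma). In the earliest bulbs it averaged 0.992 FPKM (192 days) and 2.82 FPKM (197 days). Between the periods the mean was 151 FPKM at 212 days and lower, 40.1 FPKM, at 217 days. Among other tissues it was highest in flowers, at 148 ± 67.5 FPKM, and pseudostems, at 82.6 ± 23.1 FPKM, and averaged 22.4 FPKM or less in roots, sprouts, leaves and buds.

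Asa8G00609.1, with a coding length of 1953 bases, came from a lower start and was steadier between libraries. Its values were 54.5, 102 and 113 FPKM at 222 days and 72.9, 66.4 and 39.4 FPKM at 227 days, against 0.46, 1.36 and 0.811 FPKM at 202 days and 1.57, 0.366 and 0.863 FPKM at 207 days. The groups did not overlap, as the choice of named genes required, and the lowest late library was 39.4 FPKM beside a highest mid library of 1.57 FPKM. Late bulbs averaged 74.6 ± 27.9 FPKM and mid bulbs 0.905 ± 0.48 FPKM, a gain of 5.26 ± 0.25 in log2(FPKM + 1) (SE; adjusted p = 1.11e-05, limma). This scale understates the change, since the mid level lies near the pseudocount of 1. The late values rest on 20239 reads over 6 libraries and the mid values on 292. This gene too had a higher mean at 212 days, 9.37 ± 4.13 FPKM, than at 217 days, 2.69 ± 0.899 FPKM. Flowers held 27.2 ± 9.61 FPKM and pseudostems 8.35 ± 6.18 FPKM, while leaves, sprouts, roots and buds averaged 0.942 FPKM or less.

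Asa7G06446.1, with a coding length of 246 bases, fell most by the same rule. Its levels were 19.5, 32.5 and 7.38 FPKM at 222 days and 26.7, 16.3 and 20.6 FPKM at 227 days, against 440, 427 and 330 FPKM at 202 days and 378, 827 and 231 FPKM at 207 days. All 6 late libraries lay below the lowest mid library, and the mid libraries were spread most at 207 days. The mean fell to 20.5 ± 8.65 FPKM in late bulbs, against 439 ± 205 FPKM in mid bulbs (log2 difference -4.36 ± 0.36, limma, adjusted p = 4.74e-05). Bulbs before the mid period held more still, 1630 ± 79.9 FPKM when 192 days old and 1533 ± 226 FPKM when 197 days old. At 212 days it averaged 55.0 FPKM and at 217 days 87.1 FPKM. Buds held 478 ± 107 FPKM and flowers 23.9 ± 14.3 FPKM, and the gene averaged 1.76 FPKM or less in pseudostems, roots, sprouts and leaves.

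Asa6G02702.1, with a recovered length of 790 bases, which is not a multiple of 3, fell by a like amount, to a low level. It had 0.569, 5.22 and 1.01 FPKM at 222 days and 1.64, 0.173 and 0.667 FPKM at 227 days, against 37.7, 34.9 and 50.5 FPKM at 202 days and 46.5, 60 and 35.4 FPKM at 207 days. The late values rest on 4 to 99 reads a library, and replicate 2 of the 222-day bulbs was the highest of them. Late bulbs averaged 1.55 ± 1.87 FPKM and mid bulbs 44.2 ± 10.0 FPKM (log2 difference -4.36 ± 0.34, limma, adjusted p = 4.35e-05). Means were higher before the mid period, 220 ± 13.0 FPKM in bulbs of 192 days and 122 ± 35.0 FPKM in bulbs of 197 days, and the 217-day libraries were split, at 23.0, 2.07 and 2.27 FPKM. Buds held 131 ± 39.8 FPKM. No read was found in any leaf, pseudostem or root library, which at 3 reads allows up to 0.598 FPKM in the shallowest leaf library, and 1 read was found in 1 sprout library.

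**Figure D2:**
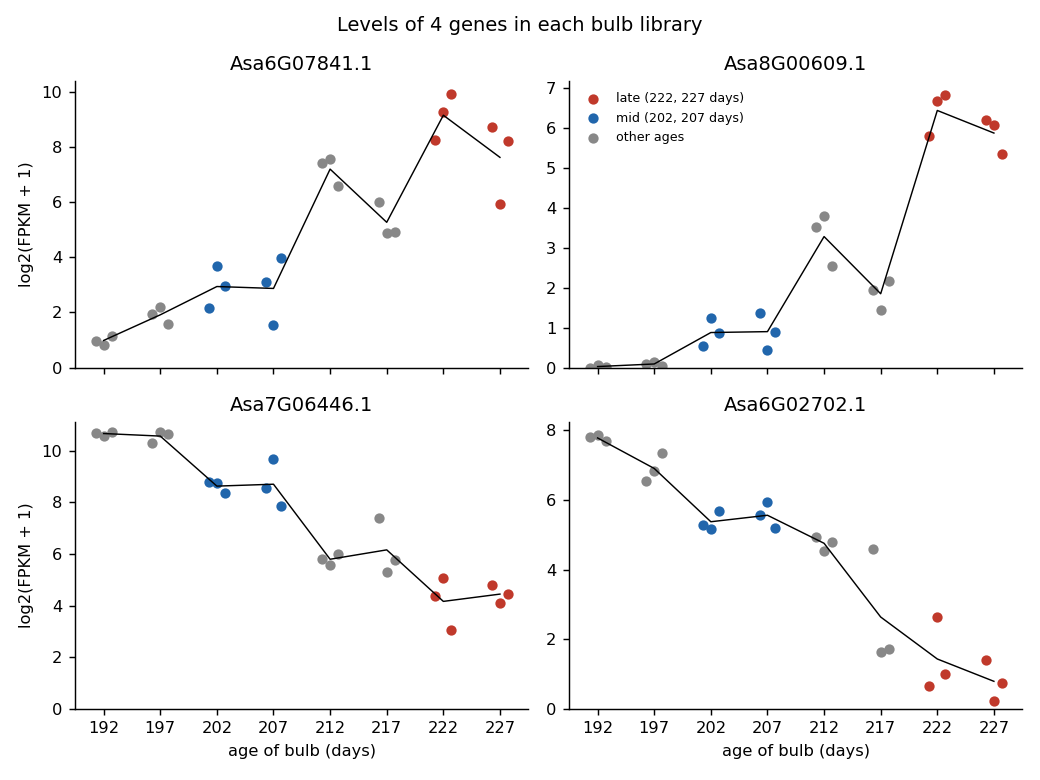
Points are single bulb libraries, with age in days on the horizontal axis and log2(FPKM + 1) on the vertical axis, and lines join the means of 3 libraries. The upper 2 genes are higher in all 6 late libraries than in all 6 mid libraries and dip at 217 days, and the lower 2 are lower in all 6 late libraries. The genes were chosen for having no overlap between late and mid libraries.

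The genes called higher held a far larger share of summed FPKM in late bulbs, and those called lower a smaller one. Since the genes were chosen by this contrast, their shares are a description and carry no test. The 580 higher genes together held 40.5%, 32.4% and 39.4% of summed FPKM at 222 days and 37.6%, 48.1% and 37.6% at 227 days, against 2.95%, 4.41% and 4.55% at 202 days and 3.56%, 3.88% and 7.59% at 207 days. The mean share was 39.3% ± 5.14 in late and 4.49% ± 1.63 in mid bulbs (SD, n = 6 each). The 2729 lower genes held 12.1% ± 2.10 in late and 33.8% ± 3.28 in mid bulbs. Few genes held most of it: the 10 most abundant of the higher genes alone held 30.4% ± 5.17 of summed FPKM in late bulbs and 2.33% ± 1.1 in mid bulbs. Their late means ran from 6813 to 66532 FPKM and their mid means from 315 to 6540 FPKM, with log2 differences from 2.56 to 4.85. Late and mid libraries did not overlap for 9 of the 10, beside 47.8% of the 580 higher genes. Over all genes tested, late libraries lay above all mid libraries for 1.46%. The 10 most abundant of the lower genes changed less, with log2 differences from -2.31 to -1, and held 1.31% to 2.12% in late and 4.12% to 5.57% in mid libraries.

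**Figure D3:**
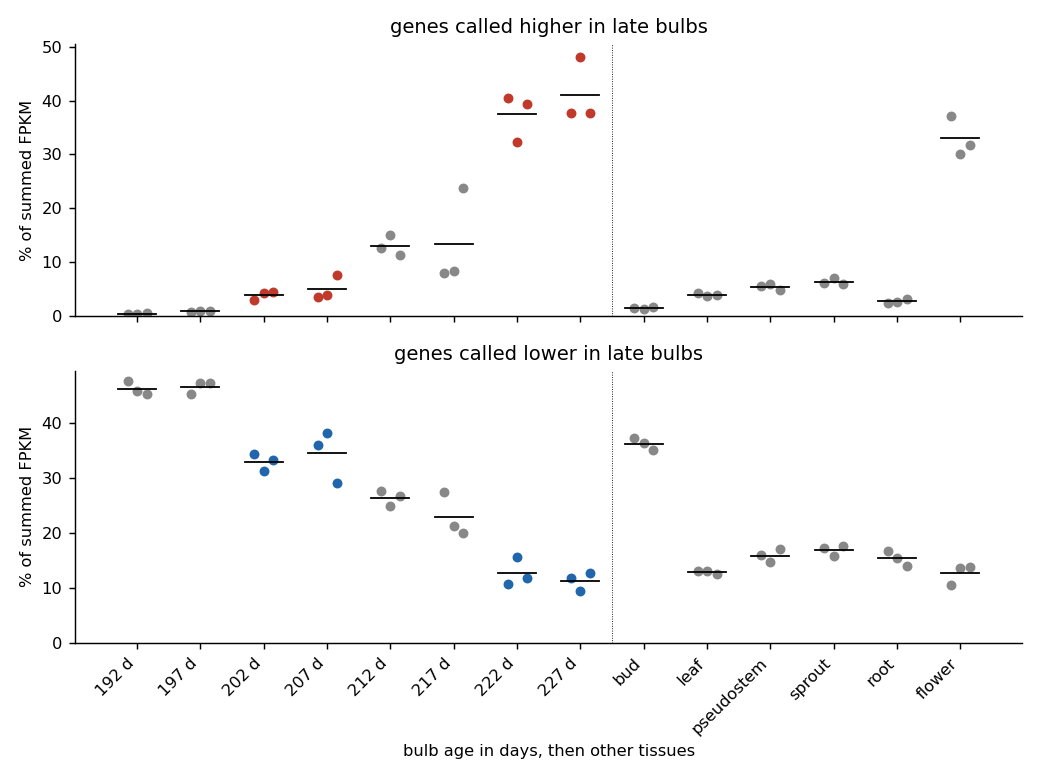
Points give the share of summed FPKM held by the 580 genes called higher (upper panel) and the 2729 called lower (lower panel) in each of the 42 libraries, bars are means of 3, and coloured points are the 12 libraries compared. The higher genes hold 32.4% to 48.1% in late bulbs and 30.1% to 37.1% in flowers, and 7.59% or less in mid bulbs and in the 5 other tissues.

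Measures that did not use the called genes also differed. The 100 most abundant genes of each library, whichever they were, held 47.1%, 39.8% and 46.3% of summed FPKM at 222 days and 44.1%, 54.7% and 44.6% at 227 days, against 19.9%, 19.7% and 20.6% at 202 days and 19.2%, 19.9% and 22.9% at 207 days. Late and mid libraries did not overlap, and the difference of 25.7 percentage points gave p = 0.00216 in an exact 2-sided permutation test, the smallest that 6 against 6 libraries allow. Genes with at least 1 FPKM numbered 26080 ± 905 in late and 26990 ± 301 in mid bulbs, a difference of -910 (exact 2-sided permutation p = 0.00433). With Benjamini-Hochberg adjustment over these 2 measures both exact permutation p-values were 0.00433. Both held when libraries were thinned to 18.68 M reads, at 25.7 points and -899 genes. Without replicate 2 of the 227-day bulbs, which had 24255 genes at this level, the difference in gene number was -545. At a minimum of 0.1 FPKM it was -605 and missed the threshold (exact permutation p = 0.128). FPKM is scaled to each library's total, so a larger share in few genes lowers the values of the others. The 2 measures are therefore not independent, and the gene number was not compared under other scalings.

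Genes at high levels were called most often. Grouped by their mean over the 12 libraries, 1.78% of the 14963 genes at 1 to 10 FPKM were called higher and 6.16% lower. At 10 to 100 FPKM these shares were 1.88% and 11.3% of 10813 genes, and at 100 to 1000 FPKM 4.41% and 34.2% of 1586 genes. Among the 107 genes with a mean of 1000 FPKM or more, 27 were higher and 27 were lower, 25.2% each. Of these level classes the most abundant had the largest share of higher calls, and that of 100 to 1000 FPKM the largest share of lower calls. The grouping used the same 12 libraries as the calls, so a gene could enter a class through its late or mid values. These shares are a description from FPKM as deposited and were not computed under the other scalings. Over all genes, the spread between libraries of a period had a median SD of 0.39 for late and 0.29 for mid bulbs on the log2 scale. Each SD pools both ages of a period. The late one includes replicate 2 of the 227-day bulbs, which stood apart, and was not computed without it.

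Complete gain or loss of a transcript was rare among the called genes. The counts of low or absent genes were not made over all genes tested, so nothing is read from them about the called genes in particular. Of the 580 higher genes, 64 were under 1 FPKM in all 6 mid libraries, 18 of these were at 1 FPKM or more in all 6 late libraries, and 2 had no read in any mid library. Among the 2729 lower genes, 122 were under 1 FPKM in all 6 late libraries, 86 of them with at least 1 FPKM in all 6 mid libraries, and 0 were without any read in all 6 late libraries. Late and mid libraries did not overlap for 277 of the higher genes (47.8%) and 2114 of the lower ones (77.5%). Over all genes tested, late libraries lay above all mid libraries for 425 (1.46%) and below them for 5084 (17.5%), and since the calls used the same contrast nothing is read from this. The higher genes varied more between libraries, with a median SD of 0.70 on the log2 scale in late bulbs, against 0.45 for the lower genes.

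The 12 libraries hold a pair of comparisons with no library in common, 227 against 207 days and 222 against 202 days. At 227 against 207 days 487 genes were higher (1.68%) and 3425 lower (11.8%), and at 222 against 202 days 452 were higher (1.56%) and 1697 lower (5.84%). Called higher in both were 233 genes, 47.8% of the first list and 51.5% of the second. Called lower in both were 1297, 37.9% and 76.4% of the lists. In opposite directions 4 genes were called. The genes called higher at 222 against 202 days had a median difference of 1.91 there and 1.29 at 227 against 207 days, where 93.4% of them were above 0, against 28.8% of all genes tested. Those called lower had medians of -1.37 and -1.49, and 98.5% of them were below 0 at 227 against 207 days, as were 71.2% of all genes. Both comparisons used the same error estimate from 12 libraries. Fitted separately on 6 libraries each, they gave 239 and 656 higher genes with 140 in both, and 2090 and 2189 lower genes with 1018 in both. These counts and overlaps moved with the scaling and with single libraries. Median-of-ratios scaling gave 870 and 532 higher genes with 294 in both (33.8% and 55.3% of the lists), and 1397 and 651 lower genes with 481 in both (34.4% and 73.9%). Without replicate 2 at 227 days there were 754 and 632 higher genes with 331 in both (43.9% and 52.4%), 2774 and 2159 lower genes with 1370 in both (49.4% and 63.5%), and 8 genes in opposite directions. Leaving out either of replicates 1 and 2 at 207 days gave 322 and 276 higher genes at 227 against 207 days. At 222 against 202 days, omitting any 202-day replicate, or 222-day replicate 1 or 3, gave 225 to 290 higher and 806 to 985 lower genes.

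**Figure D4:**
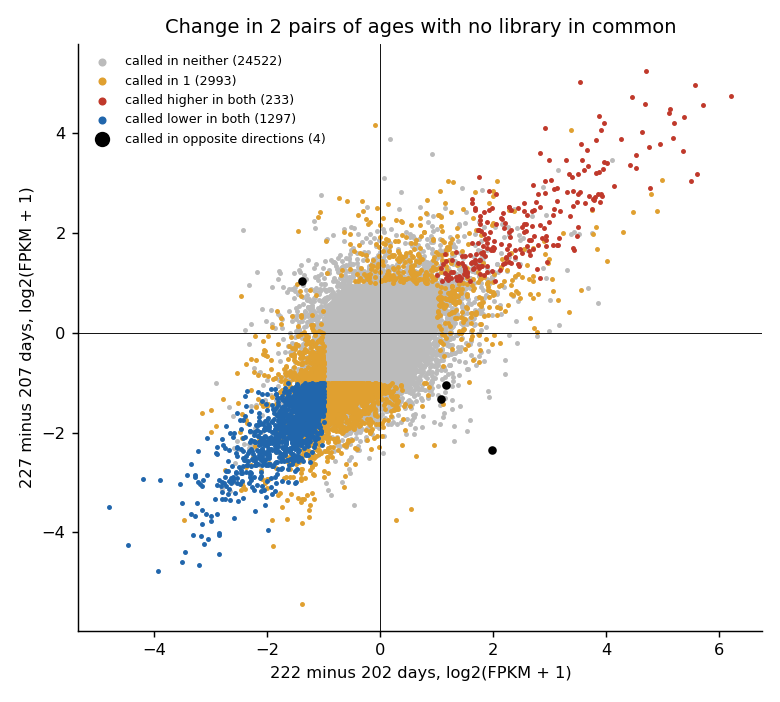
Each point is 1 of 29049 genes, with the change at 222 against 202 days on the horizontal axis and the change at 227 against 207 days on the vertical axis, both on the log2(FPKM + 1) scale. The 233 genes called higher in both and the 1297 called lower in both lie along the diagonal, and 4 genes were called in opposite directions.

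Within a period no gene passed the test between ages. Between 227 and 222 days limma called 0 genes (0.00% in either direction), with 1526 of 29049 at an unadjusted p below 0.05, and between 207 and 202 days it called 0, with 2103. A test of the difference between the 2 late-mid comparisons also called 0 genes, with 2019 at an unadjusted p below 0.05. Limma-voom on recovered reads called 0 in all 3. These counts do not show that the ages were alike. With library weights, which give replicate 2 of the 227-day bulbs a weight of 0.129, 22 genes were called between 207 and 202 days, and the fit of all 24 bulb libraries called 11 there, 1 between 227 and 222 days and 3 for the difference.

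The bulbs of the other 4 ages, fitted apart, showed where the changes lay in time. Of the 580 genes higher in late than in mid bulbs, 527 could be tested in those libraries, and 97.7% of them were higher at 212 and 217 than at 192 and 197 days, with 451 called higher and 2 lower and a median difference of 2.01. Among the 28286 genes tested in both sets, 52.4% were higher. In that fit 10.4% of genes were called higher and 8.43% lower. Of the 2728 lower genes tested there, 92.8% were lower, with 1418 called lower and 39 higher and a median of -1.04. Levels before the mid period lay on the far side from the late ones for part of each group. At 192 and 197 days 42.4% of the higher genes stood at least 1 below their mid level on the log2 scale, and 25.6% of the lower genes stood at least 1 above theirs. Over all genes tested these shares were 5.77% and 3.47%. Of the 2729 lower genes, 62 (2.27%) stood at least 1 below their mid level at 192 and 197 days.

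Between the periods, most late-higher genes were not higher at the later age, while most late-lower genes were lower. At 217 against 212 days, where 3.69% of genes were called higher and 2.74% lower, 39.3% of the 527 late-higher genes were higher, with 17 called higher and 104 called lower. Of the 2728 late-lower genes tested, 67.3% were lower there, with 187 called lower and 70 called higher. Of all 28286 genes tested in both sets, 51% were higher at 217 than at 212 days. With median-of-ratios scaling 36.6% of the late-higher genes were higher and 70.7% of the late-lower genes were lower, where 46.8% of all genes were higher. With each gene's late mean set to 100% and its mid mean to 0% on the log2 scale, the median late-higher gene stood at 51.1%, 63.8% and 49.0% in the 212-day libraries and at 36.8%, 37.6% and 46.5% in the 217-day libraries. The median late-lower gene stood at 25.9%, 35.2% and 29.1% at 212 days and at 22.4%, 57.8% and 60.7% at 217 days. The 217-day libraries were spread widely. Replicate 1 was nearest to the mid level for the lower genes, and replicate 3 held 23.7% of summed FPKM in the higher genes, against 8.10% and 8.32% in replicates 1 and 2. Replicate 2 was also the shallowest bulb library, at 12.83 M reads. Whether depth moved these values was not tested. Chosen without replicate 2 of the 227-day bulbs, 47.7% of the late-higher genes were higher at 217 than at 212 days.

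Among tissues not labelled as bulbs, the late-higher genes were most often highest in flowers and the late-lower genes in buds. Of 574 late-higher genes with at least 1 FPKM in 1 or more of the 6 other tissues, 276 had their highest mean in flowers (48.1%), against 7.61% of all 28787 genes so detected. Buds were the highest tissue for 7 of them (1.22%), against 39.1% of all. Of 2723 late-lower genes, 1950 were highest in buds (71.6%) and 81 in flowers (2.97%). The median late-higher gene had 21.3 FPKM in flowers, 11.9 in pseudostems, 7.72 in roots, 6.57 in leaves, 5.98 in sprouts and 3.15 in buds, beside 18.0 FPKM at 222 days and 3.29 FPKM at 202 days. For the median late-lower gene the levels were 42.0 FPKM in buds, 15.6 in sprouts, 11.3 in flowers and 6.33 to 10.5 in the other 3 tissues, beside 11.1 FPKM at 222 days and 28.7 FPKM at 202 days. Among the 991 genes lower under every scaling 81.8% of the 986 detected ones were highest in buds. Flower and bud differ from the other tissues in labelled age as well, at 217 and 10 days, and tissue and age cannot be told apart for them. The 10 most abundant late-higher genes held 21.4% to 27.8% of summed FPKM in flower libraries and at most 0.169% in the other non-bulb tissues. On the mid-to-late scale used above, the median late-higher gene stood at 102.2% to 106.4% in flower libraries and at most at 59.1% in those tissues. The median late-lower gene stood at 86.8% to 110.1% in flowers, but at 113.8% to 124.9% in roots too. It stood at 121.8% to 123.4% in leaves, 90.1% to 99.2% in pseudostems and 68.8% to 83.3% in sprouts. In buds it stood at -31.4% to -22.9%. The titles of the libraries labelled flowers contain the letters that open the bulb titles, and no label says what these letters mean. Whether those libraries hold bulb tissue was not tested.

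**Figure D5:**
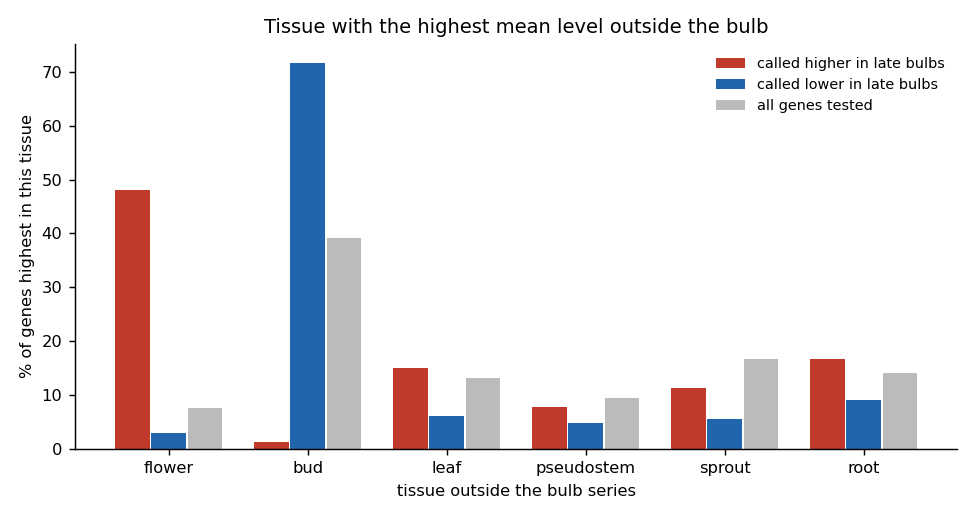
Bars give, for each tissue outside the bulb series, the percentage of genes with their highest mean log2(FPKM + 1) there, for genes called higher in late bulbs (574 detected), genes called lower (2723) and all genes tested (28787). Flowers hold 48.1% of the higher genes and buds 71.6% of the lower ones, against 7.61% and 39.1% of all genes.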

How the data were processed

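The deposited table gives FPKM per gene ID and library. Per the submitters' processing notes, Bowtie2 and RSEM were used by the authors. The sources used here give neither their versions nor the reference. All 42 columns carried sample titles, with 0 left over. The members and lists were chosen with earlier results of these data known.

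In each library a gene's FPKM was a whole multiple of what 1 read is worth. For all 45750 genes above 0 this gave whole reads within 0.001, and the step gave lengths for 45693, of which 93.7% were multiples of 3, so they are called coding lengths. Reads in the table came to 91.7% to 94.2% of each library's scaling total in the 12 libraries. They served for depth, thinning and 1 alternative fit. Intervals and limits from reads cover counting error only. Genes with near-identical copies are uncertain, since no source says how shared reads were assigned.

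Tests used limma 3.58.1 in R 4.3.3 on log2(FPKM + 1), with a mean per age, a variance trend and Benjamini-Hochberg adjustment over all genes tested, after a trial on simulated data. The contrast was the mean of the late ages minus the mean of the mid ages. Differences on this scale understate changes near 1 FPKM. Single values per library were compared with exact permutation tests in SciPy 1.17.1. Named genes are the 2 largest rises and 2 largest falls among called genes whose higher period averaged 10 FPKM or more, with no overlap, and the same rule named none for ages within a period. Replicates of an age differed beyond sampling noise in every pair (chi-square of 25.28 or more per degree of freedom). Alternatives were the pseudocount, filter, scaling, set of libraries, replicate block and voom. Library weights and separate fits were added after seeing the data.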

Additional observations from a re-analysis of the deposited data

Results flagged for a closer look

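The tests for a library far from the other 5 of its period were made on 16 sets of values and marked 4. A chance rate of about 1 in 20 holds only for independent sets of normally distributed values. These sets share libraries and each pools 2 ages, so nothing is read from the number marked. Replicate 2 of the 227-day bulbs had the fewest genes with at least 1 FPKM among late libraries, 24255, against 26282 to 26629 in the other 5. Replicate 3 of the 207-day bulbs held 7.59% of summed FPKM in the genes called higher late, above the 2.95% to 4.55% of the other mid libraries. Replicate 2 of the 222-day bulbs had 5.22 FPKM of Asa6G02702.1, where the other late libraries had 0.173 to 1.64. In mid bulbs, replicate 2 at 207 days had 827 FPKM of Asa7G06446.1, above 231 to 440 in the others.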

How the results depend on the processing

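The 4 named genes kept direction and call under all 24 alternatives, with adjusted p-values (limma) of at most 0.000514. They were chosen as the largest changes without overlap in these data, so this could hardly be otherwise and nothing is read from it. Counts moved with scaling. At 227 against 207 days, higher and lower genes numbered 870 and 1397 with median-of-ratios scaling, 869 and 1228 after quantile normalization, and 1298 and 1006 without the most abundant genes. At 222 against 202 days median-of-ratios scaling gave 651 lower, quantile normalization 630, and scaling without the most abundant genes 713 higher and 466 lower. Late against mid, these scalings gave 963, 1024 and 1360 higher and 1360, 1270 and 1028 lower genes. Library weights gave 945 higher late against mid, 1039 higher at 227 against 207 days, 900 and 2812 at 222 against 202 days, and 22 calls between 207 and 202 days. Separate fits gave 239 and 2090 at 227 against 207 days. The fit of 24 bulb libraries gave 1 call between 227 and 222 days, 11 between 207 and 202 days and 3 for the difference. The cause was not tested.

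Leaving out each library in turn gave 469 to 769 higher and 2365 to 3199 lower late against mid, 276 to 754 and 2542 to 4331 at 227 against 207 days, and 225 to 632 and 806 to 2188 at 222 against 202 days. At 222 against 202 days higher and lower genes numbered 225 and 897 when 202-day replicate 1 was omitted, 288 and 985 for its replicate 2, 256 and 875 for its replicate 3, 290 and 839 for 222-day replicate 1, and 247 and 806 for 222-day replicate 3. Calls ranged from 0 to 1 between 227 and 222 days (1 omitting 227-day replicate 3), from 0 to 6 between 207 and 202 days (6 omitting 207-day replicate 3, 1 and 2 omitting 222-day replicates 2 and 3) and from 0 to 1 for the difference (omitting replicate 2 of 207-day or of 227-day bulbs). The same-direction share at 217 against 212 days ranged from 34.2% to 47.7% for late-higher and from 62.4% to 71.7% for late-lower genes (70.7% with median-of-ratios scaling). At 212 and 217 against 192 and 197 days it ranged from 96.9% to 98.5% and from 90.3% to 94.0%. The share of the 100 most abundant genes differed by 24 to 27 points and the number of genes by -1020 to -545 (exact permutation p at most 0.00866), and by -605 at 0.1 FPKM.

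In deviations from their age means, 4 of 18 same-numbered pairs of libraries of different ages correlated above 0.1 (median -0.03, highest 0.38). Of 36 pairs with different numbers, 6 did (median 0, highest 0.23). These values do not decide whether the numbers pair the samples. With the replicate block, 573 genes were higher and 2693 lower late against mid, with 453 and 3349 at 227 against 207 days, 410 and 1461 at 222 against 202 days, and 0 calls within periods. Depth limits the lowest levels: Asa6G02702.1 rested on 4 reads in 1 late library.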

Other observations

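Genes with consecutive numbers in their IDs were often called together. Of the 463 late-higher genes with a tested gene at the next lower or next higher number of the same prefix, 126 (27.2%) had such a neighbour called higher too, against 2.62% of the 23904 genes tested with a tested neighbour. For late-lower genes this was 670 of 2244 (29.9%), against 12.7%. The longest run of consecutive numbers was 4 genes for higher and 6 for lower, and there were 10 and 46 runs of at least 3. Whether neighbours share reads as near-identical copies was not tested.

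Median coding length was 666 bases in late-higher genes, 675 in late-lower genes and 738 in all genes tested. The longest genes were called least often in either direction. Among the 2571 genes of at least 2000 bases, 1.05% were called higher and 6.22% lower, against 2.14% and 10.3% of the 9737 genes under 500 bases. By ID prefix, the share called higher ran from 1.66% (Asa2G) to 2.87% (Asa0G) and the share called lower from 8.83% (Asa7G) to 10.2% (Asa3G).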
